A study of Homo sapiens with 24 samples.

Results

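The type I interferon response genes described here are 41 named genes that cells switch on when interferon, or the sensing of viral nucleic acid, activates them. They are a list of names with no threshold on measured values, although the list was drawn up with earlier results of these data known. All 41 were among the 57500 gene identifiers of every count file. The cells were H2052, an established human line derived from mesothelioma of the pleura. Cells were transfected with 20 nM of a biotinylated miR-497-5p mimic, labelled miR-497-5p-RE, a suffix not explained in the sources used here, or with a biotinylated scrambled mimic, labelled Control. RNA was collected at 12 and 72 h, both as input (RNA-seq) and as the RNA that streptavidin beads retained through the biotin (Pull-down), which gave 8 groups of 3 libraries. Each group was RNA-seq or Pull-down, at 12 or 72 h, of miR-497-5p-RE or Control cells, and every group carried a transfected biotinylated RNA. Untransfected cells were not analysed here, so the level without any transfected RNA is not known. Nothing in the labels states whether the 3 libraries of a group were separate cultures. The p-values therefore reflect the spread among libraries, which may be technical.

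Type I interferons bind a receptor made of IFNAR1 and IFNAR2, whose kinases JAK1 and TYK2 activate transcription factors that include STAT2. A complex that holds STAT2 and IRF9 binds a short DNA element, the interferon-stimulated response element, in front of the response genes. Many of the same genes also respond to cytoplasmic RNA sensors, through IRF3 and IRF7, and many keep a basal level without added interferon. Their products detect foreign RNA, block its translation, degrade it, stop viruses from entering or leaving the cell, or feed back on the pathway. A microRNA acts mostly through its seed, the bases near its start that pair with sites in 3′ UTRs.

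RNA-seq libraries held 21561816 to 30602007 counts and pull-down libraries 8262425 to 30650982. The biological coefficient of variation was 0.06 in RNA-seq and 0.349 in the pull-down, so the pull-down resolved only larger differences. The mesothelial markers MSLN and WT1 were present in all RNA-seq libraries, at 49.2 to 75.3 and 10.1 to 22.1 CPM (counts scaled to library size with TMM factors), while UPK3B stayed at or below 0.688 CPM. Squamous epithelial markers were summed over 14 genes. In RNA-seq at 12 h the sum was 440, 16.2 and 39.5 CPM in the miR-497-5p-RE libraries and 467, 456 and 164 CPM in the Control libraries. At 72 h the same sum was 2.96 to 3.48 CPM in miR-497-5p-RE and 3.19 to 3.75 CPM in Control libraries. Leukocyte markers summed over 9 genes to 2.62 to 4.15 CPM in miR-497-5p-RE and 4.2 to 5.24 CPM in Control at 12 h, and to at most 0.957 CPM in RNA-seq at 72 h. Fewer cells that express a gene and less of its RNA per cell cannot be told apart in these bulk libraries.

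The sequence of the mimic and the sites its seed could pair with were read first, because they set which members carry a match. In the mature microRNA from RefSeq (GRCh38.p14, chr17:7017979-7017999, minus strand) the capitals mark the seed, and in the 3′ UTR stretches from GENCODE 44 (GRCh38) they mark the letters complementary to it. In IFIT3 and OAS1 the capitals also mark the A that follows, which lies opposite the first base of the microRNA, outside the seed.
miR-497-5p: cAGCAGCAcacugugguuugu
IFIT3, chr10:89339492-89339519, plus strand: ccagattgggTGCTGCTAcaaggcaaaa
OAS1, chr12:112917448-112917475, plus strand: gttcatcccaTGCTGCTAttttgctctc
IFIT1, chr10:89406466-89406487, plus strand: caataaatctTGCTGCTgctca
DDX60, chr4:168217964-168217990, minus strand: agtttcttaaTGCTGCTgcaacaaatt
PARP14, chr3:122730490-122730516, plus strand: gggccacagtTGCTGCTtcattaacat
Of these 5 stretches, those of IFIT3 and OAS1 hold the longest matches. IFIT1, DDX60 and PARP14, like IFIT3, rose in RNA-seq at 72 h, so the stretches shown do not represent all members with a match. TGCTGCT on the transcript strand stood in the longest annotated 3′ UTR of 8 of the 41 members (19.5%), against 26.2% of 13945 tested genes with a UTR. The other 3 members with it were OAS3, IRF1 and HERC6, which, like OAS1, were not called in RNA-seq at 72 h, as defined below. In IFIT1 a second match overlapped the first, both at the very end of the UTR. The shorter GCTGCT, which TGCTGCT contains, stood in 34.1% of members and 47.4% of the tested genes. These shares describe the UTRs and were not tested.

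The response element was searched in the stretch before each start site, since it is the letters these genes are known for. The letters GAAA, any 2 bases and GAAA again, on either strand, stood in the RefSeq promoter window (250 bases before to 50 after a start, GRCh38.p14) of 23 of the 33 members that have one (69.7%), against 4.38% of 27305 genes of the table. Capitals mark the letters of the element, written as GAAA or, on the other strand, as TTTC.
IFIT1, chr10:89392503-89392532, plus strand: ttagTTTCacTTTCcccTTTCggTTTCcct
IFIT5, chr10:89414545-89414574, plus strand: ttagTTTCgaTTTCttaagTTTCagTTTCt
ISG15, chr1:1013380-1013409, plus strand: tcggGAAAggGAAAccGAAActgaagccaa
IFI27, chr14:94110624-94110653, plus strand: gcagTTTCggTTTCctgGAAAatGAAAcct
IFI6, chr1:27672323-27672352, minus strand: agggGAAAatGAAActctgcagagtgcagg
These 5 are shown because the first pair rose and the other 3 fell with miR-497-5p-RE at 72 h, as described below. The element stood in 9 of 11 members that rose at 72 h, 4 of 5 that fell and 9 of 16 that were not called, so its letters were common on both sides. IRF7, OAS2, OASL, IFIT2, IFITM2, MX2, TRIM22 and USP18 have no window in the table.

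At 72 h in RNA-seq, miR-497-5p-RE cells held more RNA of the IFIT family, of the RNA sensors and of STAT2 than Control cells, and less of ISG15, IFI6, IFI27 and CMPK2. A gene is called where its adjusted p is under 0.05 in edgeR's quasi-likelihood test with Benjamini-Hochberg adjustment over all genes tested, and every adjusted p below is from such a fit unless named otherwise. Of 40 members tested, 17 rose and 6 fell. RSAD2 was too low to test. The called share, 57.5% of members, equals the 57.5% of all 17335 genes that were called, so being changed at 72 h does not set the members apart. By direction, 42.5% of members rose, against 27.9% of all genes, and 15.0% fell, against 29.6%. The median log2 fold change (miR-497-5p-RE over Control) was 0.23 over the members and 0.00 over all genes. With library totals in place of TMM scaling the median over all genes moved by -0.10, and 15 members rose and 11 fell.

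**Figure D1:**
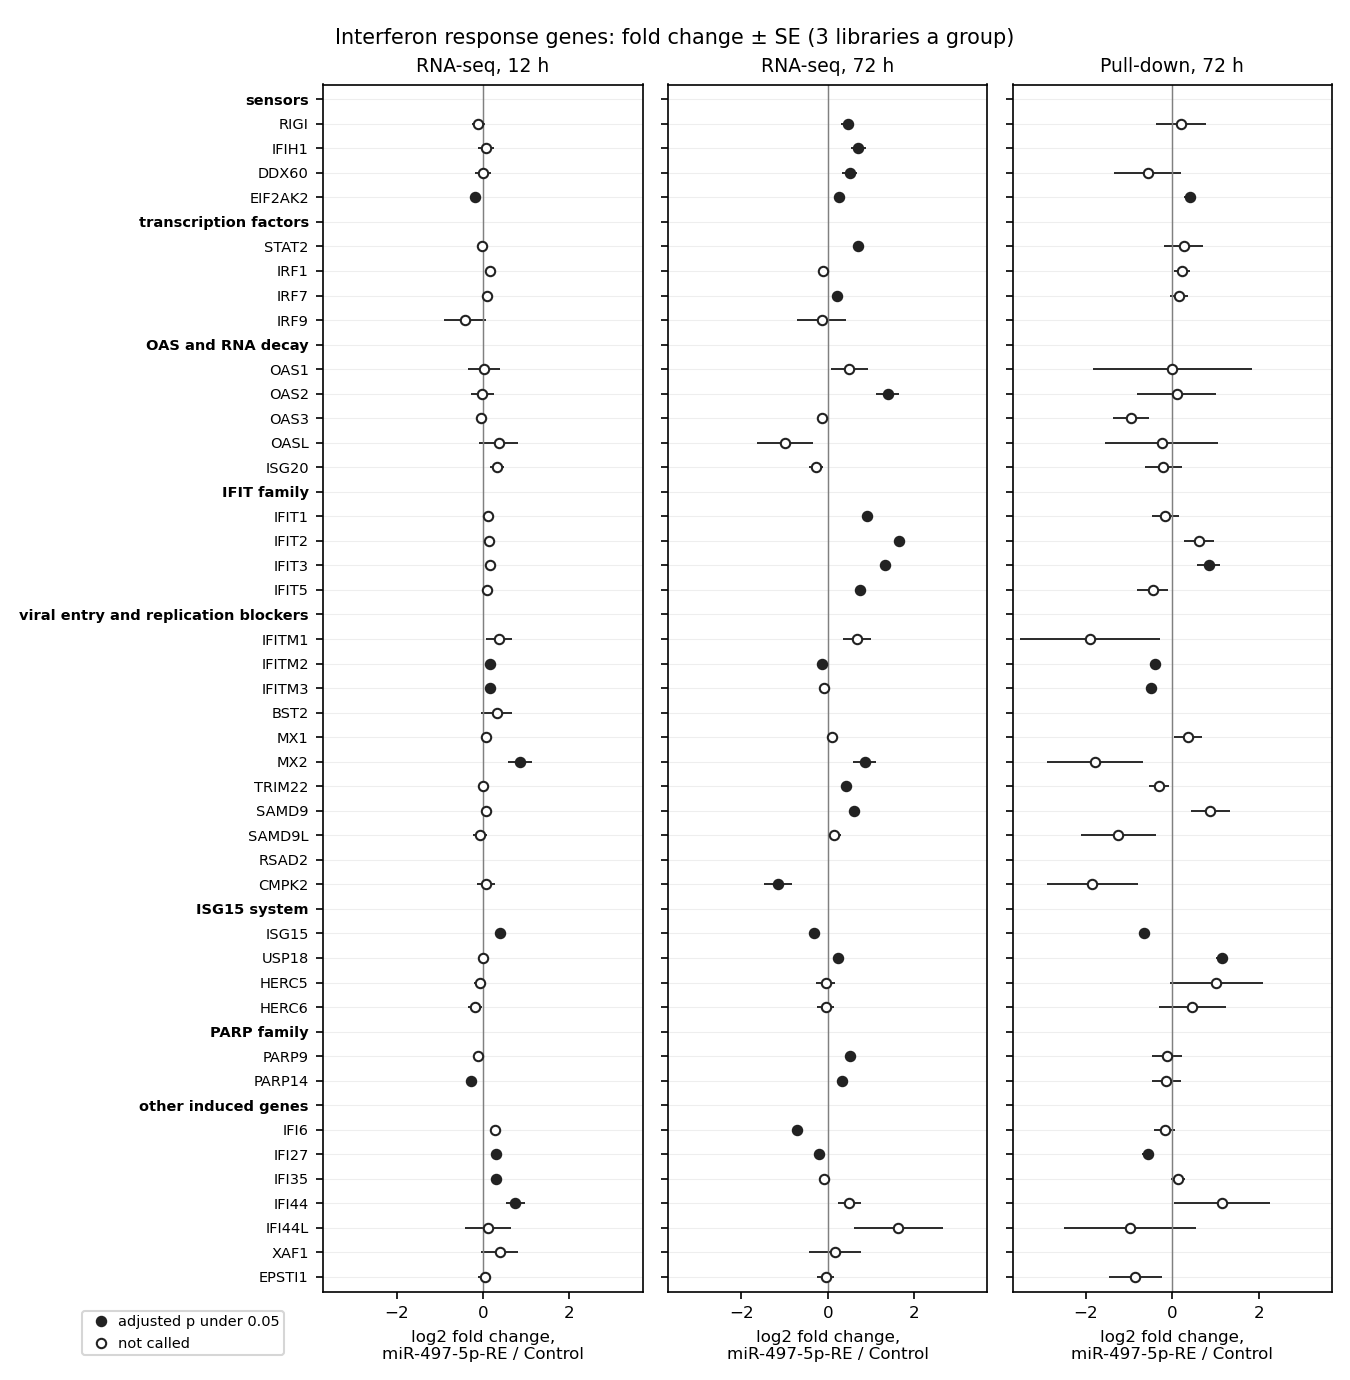
Log2 fold change, miR-497-5p-RE over Control, ± SE for each interferon response gene, by role, in RNA-seq at 12 h, RNA-seq at 72 h and Pull-down at 72 h; filled points have an adjusted p under 0.05. All 4 IFIT genes and all 4 sensors are filled and above 0 in RNA-seq at 72 h; BST2 at 72 h and IFIH1 and RSAD2 in the pull-down are not drawn because a group had no counts, nor are genes too low to test (RSAD2 in RNA-seq, IRF9 and XAF1 in the pull-down).

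The IFIT proteins bind foreign RNA and block its translation, and all 4 IFIT genes among the members rose. IFIT1B, a family gene outside the members, had 1, 0 and 0 counts in miR-497-5p-RE libraries and 0, 1 and 2 counts in Control. The 4 members lie near each other on the plus strand of chromosome 10 (GRCh38, positions as the count files give them), IFIT2 at 89283694-89309276, IFIT3 at 89327894-89340971, IFIT1 at 89392546-89406486 and IFIT5 at 89414586-89421001. IFIT2 had 21.6, 24.8 and 20.0 CPM in miR-497-5p-RE libraries, against 5.52, 7.26 and 8.28 CPM in Control. IFIT3 had 23.2, 23.0 and 22.6 CPM in miR-497-5p-RE libraries, against 10.3, 8.61 and 8.70 CPM in Control. In both genes every miR-497-5p-RE library lay above every Control library, by more than the spread within either group. The log2 fold changes were 1.66 ± 0.11 (SE) for IFIT2 (adjusted p = 2.65e-14, 3.15-fold) and 1.32 ± 0.09 for IFIT3 (adjusted p = 1.26e-17, 2.49-fold). IFIT1 had 29.6, 30.7 and 30.1 CPM in miR-497-5p-RE libraries, against 16.2, 14.7 and 17.3 CPM in Control, a log2 fold change of 0.91 ± 0.07 (adjusted p = 6.54e-16). IFIT5 had 30, 30.3 and 26.8 CPM in miR-497-5p-RE libraries, against 16.9, 18.4 and 16.2 CPM in Control, a log2 fold change of 0.76 ± 0.08 (adjusted p = 7.4e-12). Neither pair of groups overlapped. IFIT1 and IFIT3 hold the TGCTGCT matches shown above, and both rose. Exons of IFIT2 overlap those of LIPA on the opposite strand, and the sources do not say whether counting used strand, so reads of the overlap may be missing from its value or may belong to LIPA.

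The sensors rose together, by smaller steps. IFIH1, which encodes MDA5, a receptor for long double-stranded RNA, had 4.35, 4.92 and 4.68 CPM in miR-497-5p-RE libraries, against 2.54, 2.65 and 3.33 CPM in Control. RIGI, the receptor that recognises the ends of viral RNA, had 5.16, 5.77 and 4.88 CPM in miR-497-5p-RE libraries, against 4.72, 3.57 and 3.20 CPM in Control. DDX60, a helicase that aids these receptors, had 4.55, 5.13 and 4.73 CPM in miR-497-5p-RE libraries, against 3.63, 3.38 and 3.12 CPM in Control. None of these groups overlapped, and the log2 fold changes were 0.71 ± 0.18 for IFIH1 (adjusted p = 0.000538), 0.46 ± 0.15 for RIGI (adjusted p = 0.0102) and 0.51 ± 0.17 for DDX60 (adjusted p = 0.0101). EIF2AK2, the kinase PKR that halts translation on binding double-stranded RNA, was the most abundant sensor per kilobase of exon, at 12.1 CPM per kb in miR-497-5p-RE and 10.1 CPM per kb in Control. It rose by a log2 fold change of 0.26 ± 0.04 (adjusted p = 7e-07), with 129, 129 and 132 CPM in miR-497-5p-RE libraries, against 109, 112 and 105 CPM in Control. Leaving out 1 library ended the call of DDX60 in 1 case (highest adjusted p = 0.0508) and of RIGI in 2 (highest adjusted p = 0.0869).

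Among the transcription factors, STAT2, which binds the response element in a complex with IRF9, rose most clearly. It had 13.2, 13.5 and 13.3 CPM in miR-497-5p-RE libraries, against 7.86, 7.95 and 8.62 CPM in Control, with no overlap and a log2 fold change of 0.71 ± 0.10 (adjusted p = 1.03e-08). IRF7, a factor that amplifies interferon production, had 17.6, 15.9 and 15.3 CPM in miR-497-5p-RE libraries, against 14.4, 13.8 and 13.6 CPM in Control. Its log2 fold change of 0.22 ± 0.09 (adjusted p = 0.0425) missed the threshold with library totals and with no filter on low counts (highest adjusted p over the alternatives 0.323). IRF1 (-0.10 ± 0.09, adjusted p = 0.356) and IRF9 (-0.14 ± 0.57, adjusted p = 0.859) were not called. IRF9 had at most 0.614 CPM in any 72 h RNA-seq library, and its exons overlap another gene on the same strand, so reads shared with that gene may be missing.

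The oligoadenylate synthetase family, of which OAS1, OAS2 and OAS3 make the activator of the nuclease RNase L, did not move as a group. OAS2 rose, with 3.43, 3.17 and 3.62 CPM in miR-497-5p-RE libraries, against 1.53, 1.23 and 1.12 CPM in Control (log2 fold change 1.39 ± 0.27, adjusted p = 2.2e-05). OAS3, the most abundant synthetase per kilobase, had 1.63 CPM per kb in miR-497-5p-RE and 1.77 CPM per kb in Control and was not called (-0.13 ± 0.08, adjusted p = 0.171). OAS1 (0.50 ± 0.43, adjusted p = 0.344) and OASL (-0.99 ± 0.64, adjusted p = 0.19) stayed at or below 0.846 CPM at 72 h and were not called, nor was the exonuclease gene ISG20 (-0.27 ± 0.16, adjusted p = 0.137). OAS1 carries the seed match shown above, and at this depth a small change in it would not have been detectable.

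Of the 11 genes whose products block viral entry or replication, 3 rose, 3 fell, 4 were not called and RSAD2 was not tested. Both shares of the 10 tested lay near those of all genes, of which 27.9% rose and 29.6% fell. SAMD9, a restriction factor of poxviruses, had 23.2, 23.2 and 22.1 CPM in miR-497-5p-RE libraries, against 15.6, 14.2 and 15.0 CPM in Control (log2 fold change 0.61 ± 0.08, adjusted p = 3.16e-09). TRIM22, a ubiquitin ligase, had 24.4, 24.5 and 26.4 CPM in miR-497-5p-RE libraries, against 18.4, 18.9 and 19.1 CPM in Control (0.42 ± 0.07, adjusted p = 1.21e-06). MX2, a dynamin-like GTPase, had 2.35, 3.44 and 2.27 CPM in miR-497-5p-RE libraries, against 1.57, 1.34 and 1.50 CPM in Control (0.86 ± 0.27, adjusted p = 0.00493). These groups did not overlap, though the MX2 call ended without 1 library (adjusted p = 0.0679). Its relative MX1, at 7.93, 9.79 and 7.72 CPM in miR-497-5p-RE libraries and 8.06, 7.91 and 7.91 CPM in Control, was not called (adjusted p = 0.533). CMPK2, a mitochondrial nucleotide kinase, fell, with 0.460, 0.423 and 0.531 CPM in miR-497-5p-RE libraries, against 1.13, 1.19 and 0.832 CPM in Control (-1.15 ± 0.32, adjusted p = 0.00204). Its neighbour RSAD2, which encodes viperin and overlaps it on the opposite strand, had 6, 4 and 3 counts in miR-497-5p-RE libraries and 2 counts in each Control library. The IFITM proteins stop viruses at the membrane, and their genes are alike enough that only reads placed uniquely could be counted. Exons of IFITM1 and IFITM2 also overlap each other on the same strand, so reads shared by these genes may be missing from the values of both. IFITM2 fell by 0.13 ± 0.04 (adjusted p = 0.0111, up to 0.103 without 1 library), and IFITM3, the most abundant member at 155 CPM per kb in miR-497-5p-RE and 163 CPM per kb in Control, was not called (-0.08 ± 0.04, adjusted p = 0.104). BST2, which encodes tetherin, had 0 counts in every miR-497-5p-RE library and 5, 1 and 5 counts in Control libraries, at least 2.9-fold lower against a floor of 3 counts over the group. SAMD9L (0.15 ± 0.15) and IFITM1 (0.68 ± 0.33, adjusted p = 0.0794) were not called.

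ISG15, a ubiquitin-like protein joined to other proteins during the response, fell. It had 23.6, 21.8 and 23.0 CPM in miR-497-5p-RE libraries, against 27.8, 29.8 and 27.6 CPM in Control, with no overlap and a log2 fold change of -0.31 ± 0.07 (adjusted p = 0.00018). USP18, which removes ISG15 and also blocks signalling at IFNAR2, had 16.7, 16.3 and 14.2 CPM in miR-497-5p-RE libraries, against 12.7, 13.3 and 14.0 CPM in Control. Its log2 fold change of 0.24 ± 0.09 (adjusted p = 0.028) missed the threshold with library totals and with no filter (highest adjusted p = 0.245). HERC5, the ligase that attaches ISG15, and its relative HERC6 were not called (both -0.05, adjusted p = 0.877 and 0.844). PARP9, an ADP-ribosyltransferase, had 14.4, 14.1 and 13.9 CPM in miR-497-5p-RE libraries, against 9.64, 9.53 and 10.6 CPM in Control (log2 fold change 0.51 ± 0.09, adjusted p = 7.29e-06). PARP14, of the same family, rose by 0.34 ± 0.09 (adjusted p = 0.000836). PARP9 overlaps DTX3L on the opposite strand, and DTX3L rose as well (0.43 ± 0.06, adjusted p = 1.21e-07), and if counting did not use strand, reads of the overlap cannot be assigned to either.

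Of the 7 other induced genes none rose (against 27.9% of all genes) and 2 fell (28.6%, near the 29.6% of all genes). IFI6, a small membrane protein, had 6.29, 5.61 and 6.52 CPM in miR-497-5p-RE libraries, against 8.71, 10.6 and 10.9 CPM in Control (log2 fold change -0.71 ± 0.12, adjusted p = 7.13e-07). IFI27, its relative, had 62.0, 58.1 and 60.0 CPM in miR-497-5p-RE libraries, against 65.2, 70.7 and 71.3 CPM in Control (-0.20 ± 0.05, adjusted p = 0.00152). All miR-497-5p-RE libraries lay below all Control libraries in both genes. IFI35, IFI44, IFI44L, XAF1 and EPSTI1 were not called, with log2 fold changes of -0.09 to 1.64, the last for IFI44L at no more than 0.205 CPM. The 17 members that rose had a median exon length of 6020 bases and the 6 that fell one of 1331 bases. Over all genes tested the median log2 fold change was -0.01 among the shortest genes (up to 3092 bases) and 0.08 among the longest (over 5942 bases), and the part of length in the members' pattern was not tested.

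**Figure D2:**
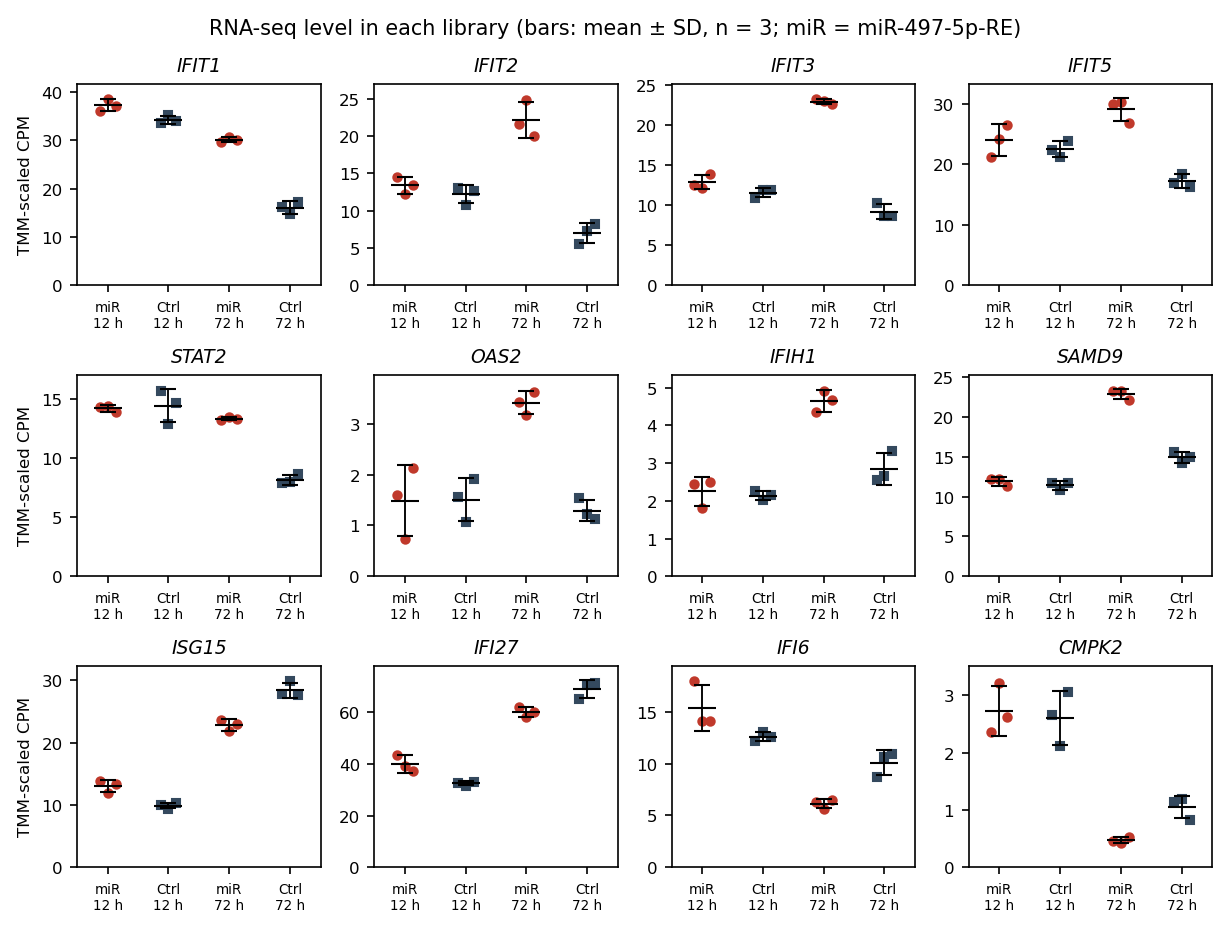
RNA-seq level (TMM-scaled CPM, axis from 0) of 12 interferon response genes in each library at 12 and 72 h, miR-497-5p-RE left of Control at each time, with mean ± SD of 3 libraries. IFIT2 reaches 20.0 to 24.8 CPM in miR-497-5p-RE libraries at 72 h, against 5.52 to 8.28 CPM in Control; ISG15 and IFI27 lie above Control at 12 h and below it at 72 h.

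Upstream of these genes, the interferons themselves were hardly detected. Of 10 ligand genes none passed the filter on low counts. IFNB1 had 1, 1 and 0 counts in miR-497-5p-RE libraries and 0 in every Control library of RNA-seq at 72 h, and IFNA2 had 0 in all 24 libraries. IFNG, the gene of interferon gamma, had 23 counts in 1 miR-497-5p-RE pull-down at 72 h and 0 elsewhere. Zero or a few counts in libraries of this depth set a limit on ligand RNA at 12 and 72 h and say nothing about other times or about secreted protein. Both chains of the type I receptor rose at 72 h. IFNAR2 had 35.3, 34.2 and 39.1 CPM in miR-497-5p-RE libraries, against 23.1, 21.3 and 22.7 CPM in Control (log2 fold change 0.70 ± 0.07, adjusted p = 1.5e-12). IFNAR1 had 76.7, 73.7 and 83.3 CPM in miR-497-5p-RE libraries, against 67.4, 68.6 and 72.2 CPM in Control (0.17 ± 0.05, adjusted p = 0.00323). Of 6 receptor genes 4 rose (66.7%, against 27.9% of all genes), the others being IFNGR2 (0.57 ± 0.04, adjusted p = 1.14e-17) and IL10RB (0.57 ± 0.07, adjusted p = 1.71e-09), and none fell.

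The receptor kinases moved in opposite directions. JAK1, a kinase of the receptor, had 54.5, 56.2 and 55.5 CPM in miR-497-5p-RE libraries, against 39.4, 43.7 and 40.4 CPM in Control (log2 fold change 0.43 ± 0.05, adjusted p = 4.83e-10). TYK2, the kinase bound to IFNAR1, fell, with 27.0, 28.6 and 25.7 CPM in miR-497-5p-RE libraries, against 43.8, 43.1 and 44.7 CPM in Control (-0.69 ± 0.06, adjusted p = 2.88e-13). STAT3 (0.25 ± 0.05, adjusted p = 4.16e-06) and JAK2 rose as well. Of 16 tested genes between nucleic acid sensing and interferon, 2 rose (12.5%, against 27.9% of all genes) and 10 fell (62.5%, against 29.6%). IRF3 had 37.6, 33.1 and 34.6 CPM in miR-497-5p-RE libraries, against 49.7, 49.1 and 51.4 CPM in Control (-0.51 ± 0.06, adjusted p = 1.63e-10). The adaptors MYD88 (-0.65 ± 0.07, adjusted p = 1.75e-11) and TICAM1 (-0.59 ± 0.08, adjusted p = 3.69e-08) and the NF-kB subunit gene RELA (-0.29 ± 0.04, adjusted p = 7.38e-08) fell with it.

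Of 10 inhibitors of the pathway, 2 rose (20.0%, against 27.9% of all genes) and 5 fell (50%, against 29.6%) at 72 h. SOCS1 and SOCS3, which block JAK kinases, fell by 0.64 ± 0.12 (adjusted p = 1.51e-05) and 0.36 ± 0.05 (adjusted p = 9.73e-09) on the log2 scale. NLRX1, a mitochondrial brake on RNA sensing, fell by 1.19 ± 0.11 (adjusted p = 1.67e-13), while the phosphatase gene PTPN11 (0.33 ± 0.03, adjusted p = 1.9e-11) and PIAS1 (0.48 ± 0.09, adjusted p = 7.59e-06) rose. Of 29 further interferon-induced genes tested, 14 rose (48.3%, against 27.9% of all genes) and 8 fell (27.6%, near the 29.6% of all genes). IFI16, a nuclear DNA sensor, had 73.6, 79.7 and 79.2 CPM in miR-497-5p-RE libraries, against 28.1, 27.2 and 28.2 CPM in Control (1.48 ± 0.06, adjusted p = 2.32e-26). GBP1, a GTPase of the guanylate-binding family, had 10.5, 11.5 and 11.2 CPM in miR-497-5p-RE libraries, against 3.02, 2.69 and 3.29 CPM in Control (1.89 ± 0.16, adjusted p = 1.71e-14). PSMB9, an immunoproteasome subunit that also responds to interferon gamma, had 15.0, 13 and 12.8 CPM in miR-497-5p-RE libraries, against 30.4, 32.2 and 34.2 CPM in Control (-1.25 ± 0.07, adjusted p = 1.77e-19). LGALS3BP fell too (-0.52 ± 0.04, adjusted p = 2.35e-15).

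**Figure D3:**
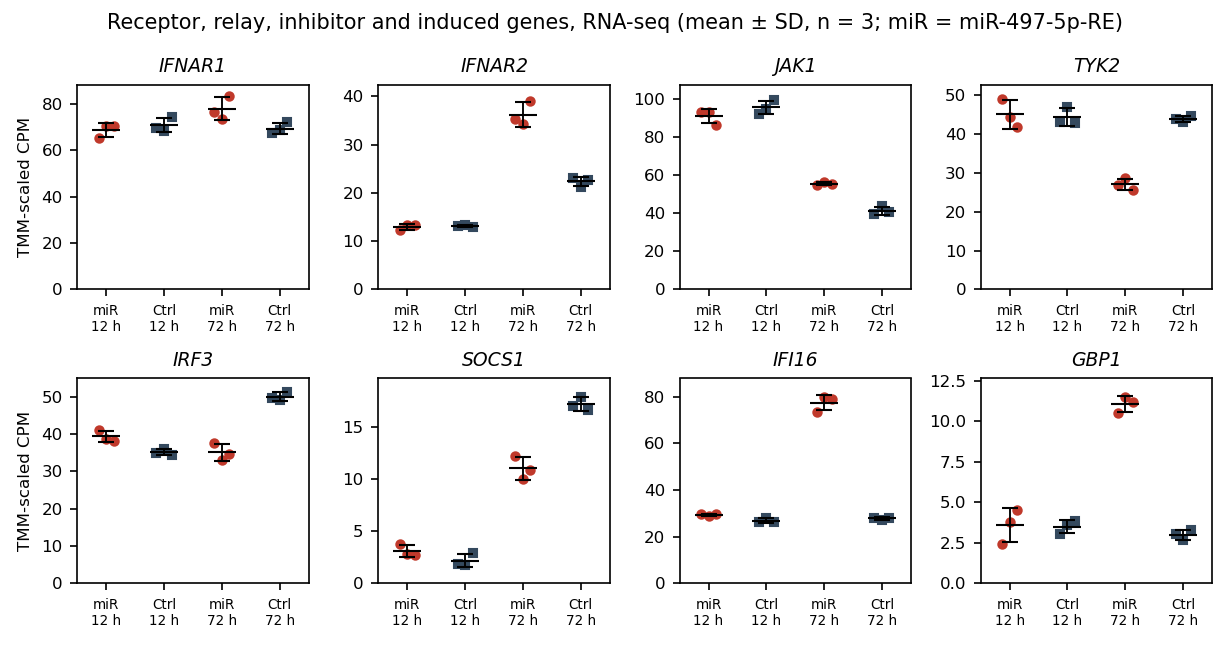
RNA-seq level (TMM-scaled CPM, axis from 0) of receptor, relay, inhibitor and response genes in each library at 12 and 72 h, miR-497-5p-RE left of Control at each time, with mean ± SD of 3 libraries. At 72 h IFNAR2, JAK1, IFI16 and GBP1 lie higher in miR-497-5p-RE than in Control libraries, and TYK2, IRF3 and SOCS1 lower.

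At 12 h in RNA-seq fewer members were called than at 72 h, among them ISG15, IFI27 and IFI35, which were higher with miR-497-5p-RE, and EIF2AK2, which was lower. Of 40 tested, 7 rose and 2 fell, a called share of 22.5% against 12.5% of all genes (of all genes 7.25% rose and 5.3% fell). No IFIT gene, transcription factor or synthetase was called, and STAT2 was at -0.02 ± 0.09. ISG15 had 13.9, 11.9 and 13.3 CPM in miR-497-5p-RE libraries, against 9.94, 9.42 and 10.3 CPM in Control (log2 fold change 0.39 ± 0.08, adjusted p = 0.000378). IFI27 had 43.7, 39.2 and 37.2 CPM in miR-497-5p-RE libraries, against 32.8, 31.6 and 33.1 CPM in Control (0.30 ± 0.06, adjusted p = 0.000158). IFI35 had 14.5, 16.2 and 16.8 CPM in miR-497-5p-RE libraries, against 12.7, 12.5 and 13.3 CPM in Control (0.30 ± 0.08, adjusted p = 0.00448). All 3 were higher in every miR-497-5p-RE library than in any Control library. IFITM2 and IFITM3 each rose by 0.17 ± 0.04 (adjusted p = 0.00787 and 0.00266), and the low genes MX2 (0.85 ± 0.28, adjusted p = 0.035) and IFI44 (0.75 ± 0.22, adjusted p = 0.0163) rose as well. EIF2AK2 fell, with 97.6, 101 and 103 CPM in miR-497-5p-RE libraries, against 111, 111 and 121 CPM in Control (-0.18 ± 0.04, adjusted p = 0.00147). PARP14 (-0.27 ± 0.09, adjusted p = 0.0495) was called as lower only narrowly. Its call ended in 3 alternatives (adjusted p = 0.0501 with DESeq2, 0.0752 with no filter and 0.102 with the groups compared alone) and without any 1 of 5 libraries (up to 0.311). The MX2 call ended with the groups compared alone (adjusted p = 0.0954) and without any 1 of 4 libraries (up to 0.268), and the IFI44 call without any 1 of 3 (up to 0.0811). The IFITM2 call ended with library totals (adjusted p = 0.0589) and without either of 2 libraries (up to 0.105).

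The 7 members that rose at 12 h had a median exon length of 1973 bases, and the 2 that fell had 10495 and 10753 bases. Over all genes tested the median log2 fold change at 12 h was 0.09 among the shortest and -0.05 among the longest genes, by the same limits, so short genes in general lay higher in miR-497-5p-RE libraries. The squamous marker sum differed between libraries of each group at this time. The part of either in the members' differences was not tested. Without Control replicate 2 the calls were 4 higher and 1 lower, and without miR-497-5p-RE replicate 1 they were 4 higher and 2 lower.

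The effect of miR-497-5p-RE changed between the times, and the change itself was tested as the effect at 72 h minus that at 12 h. In RNA-seq it was called for 22 members, 13 higher and 9 lower at 72 h (55.0%, against 48.8% of all genes, of which 22.5% were higher and 26.2% lower). All 4 IFIT genes were higher, IFIT2 by 1.52 ± 0.16 (adjusted p = 5.43e-10) and IFIT3 by 1.16 ± 0.12 (adjusted p = 4.01e-11), as were STAT2 by 0.74 ± 0.13 and EIF2AK2 by 0.44 ± 0.06. ISG15 was lower by -0.71 ± 0.11 (adjusted p = 2.23e-07), IFI27 by -0.50 ± 0.08 (adjusted p = 5.61e-07) and IFI6 by -0.99 ± 0.15 (adjusted p = 2.91e-07). ISG15 and IFI27 thus rose at 12 h and fell at 72 h, and EIF2AK2 did the reverse. IFITM2 had the signs of ISG15 and PARP14 those of EIF2AK2, but the 12 h calls of both genes, and the 72 h call of IFITM2, ended in fits named above. Of the changes with time, the call of IFIH1 (adjusted p = 0.0351) ended in 3 alternatives (up to 0.0941) and without any 1 of 7 libraries (up to 0.123). That of RIGI (adjusted p = 0.0252) ended with no filter (0.0662) and without any 1 of 5 libraries (up to 0.0985), and that of ISG20 (adjusted p = 0.026) with DESeq2 (0.0528) and without any 1 of 4 (up to 0.125). The 13 members called higher in this difference had a median exon length of 6020 bases and the 9 called lower one of 1543 bases. Over all genes tested its median was -0.13 among the shortest and 0.13 among the longest genes, by the same limits. The part of length was not tested here either.

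In Control cells the members also moved with time, 72 h against 12 h. Of 40 tested, 14 rose and 18 fell (80.0%, against 74.4% of all genes, of which 36.1% rose and 38.4% fell), with a median log2 change of -0.32 over the members and 0.00 over all genes. With library totals the median over all genes moved by -0.25, and 10 members rose and 22 fell. Over all genes tested the median log2 change was 0.43 among the shortest and -0.17 among the longest genes, by the limits above. The 14 members that rose had a median exon length of 5639 bases and the 18 that fell one of 4845 bases. The part of length in these changes was not tested. IFIT1 had 16.2, 14.7 and 17.3 CPM at 72 h, against 33.6, 35.2 and 34.0 CPM at 12 h, a log2 change of -1.10 ± 0.07 (adjusted p = 1.3e-19). All 4 IFIT genes fell, as did STAT2 (-0.83 ± 0.09, adjusted p = 4.74e-11) and HERC5, which had 1.61, 1.69 and 1.71 CPM at 72 h, against 6.28, 7.27 and 6.91 CPM at 12 h (-2.03 ± 0.16, adjusted p = 4e-15). ISG15 had 27.8, 29.8 and 27.6 CPM at 72 h, against 9.94, 9.42 and 10.3 CPM at 12 h (1.52 ± 0.07, adjusted p = 6.45e-23), and IFI27 rose by 1.09 ± 0.06 (adjusted p = 2.9e-22). IFITM2 and IFITM3 rose by 0.54 ± 0.04 and 0.51 ± 0.04, ISG20 by 1.01 ± 0.16 and SAMD9L by 0.95 ± 0.16.

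Set side by side, the IFIT genes and STAT2 fell with time in Control cells and rose with miR-497-5p-RE at 72 h, while ISG15 and IFI27 rose with time in Control cells and fell with miR-497-5p-RE. The comparisons share the Control libraries of 72 h, so these opposite signs are not independent. TRIM22 and PARP9 had the signs of STAT2, and IFITM2 those of ISG15. Other members called in both comparisons had the same sign in each. SAMD9, PARP14, IRF7, IFIH1, DDX60 and MX2 rose in both, and IFI6, CMPK2 and BST2 fell in both. Several of these calls ended in alternatives, so opposite signs were not general among the members. In levels, STAT2 had 13.2 to 13.5 CPM in miR-497-5p-RE libraries at 72 h, against 7.86 to 8.62 CPM in Control libraries at 72 h and 12.9 to 15.7 CPM in Control libraries at 12 h. IFIT2 had 20.0 to 24.8 CPM in miR-497-5p-RE libraries at 72 h, against 5.52 to 8.28 CPM in Control libraries at 72 h and 10.8 to 13.1 CPM at 12 h, so it passed the 12 h Control range. Squamous and leukocyte markers were present at 12 h and far lower at 72 h, as were the low members BST2, IFI44L and XAF1, which fell in Control cells. The XAF1 call ended without any 1 of 4 libraries (adjusted p up to 0.154). BST2 had 5, 1 and 5 counts at 72 h, against 37, 33 and 22 counts at 12 h. The part of other cells in these low members was not tested, and CD3E, a T cell marker, was at 0 CPM in all 72 h RNA-seq libraries.

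The pull-down asks which RNAs the beads retained with the biotinylated mimic. At 72 h, 4 of 39 members tested were higher and 4 lower with miR-497-5p-RE than with Control (20.5%, against 22.7% of all 17477 genes, of which 10.2% were higher and 12.6% lower), a share near that of all genes. IRF9 and XAF1 were too low to test. USP18 had the smallest adjusted p of the members, with 198, 177 and 221 CPM in miR-497-5p-RE pull-downs, against 91.4, 94.2 and 85.0 CPM in Control pull-downs, a log2 fold change of 1.14 ± 0.13 (adjusted p = 2.76e-07). Its groups were far apart, while in RNA-seq its difference was 0.24. USP18 has a near-identical copy, USP41, and only uniquely placed reads were counted, so its level is uncertain. In the 3′ UTR of USP18 the shorter match GCTGCT occurred at 2 places and TGCTGCT at none.

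IFIT3 had 35.3, 35.2 and 32.4 CPM in miR-497-5p-RE pull-downs, against 10.0, 25.6 and 21.8 CPM in Control (0.84 ± 0.26, adjusted p = 0.0196), with a wide spread in Control, and its call ended without any 1 of 3 libraries (adjusted p up to 0.117). EIF2AK2 had 81.0, 88.0 and 85.5 CPM in miR-497-5p-RE pull-downs, against 64.1, 63.1 and 65.3 CPM in Control (0.40 ± 0.12, adjusted p = 0.0129), and its call ended without either of 2 libraries (adjusted p up to 0.0565). Both IFIT3 and EIF2AK2 were also higher in the input at that time. BST2 had 26, 7 and 3 counts in miR-497-5p-RE pull-downs and 0 in every Control pull-down, at least 18.1-fold higher against a floor of 3 counts over the group, with most counts in 1 library. In RNA-seq it was lower with miR-497-5p-RE, also at very low counts. Without miR-497-5p-RE replicate 2, which had the lowest depth of the pull-downs, 2 members were called higher.

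ISG15 had 151, 124 and 161 CPM in miR-497-5p-RE pull-downs, against 239, 224 and 223 CPM in Control (-0.65 ± 0.11, adjusted p = 8.27e-05). IFITM3 had 193, 167 and 167 CPM in miR-497-5p-RE pull-downs, against 253, 239 and 250 CPM in Control (-0.49 ± 0.10, adjusted p = 0.000433). IFI27 (-0.57 ± 0.13, adjusted p = 0.00129) and IFITM2 (-0.41 ± 0.11, adjusted p = 0.00541) were lower too, and ISG15, IFI27 and IFITM2 were also lower in the input at that time. IFIT1, which rose in RNA-seq, had 3.86, 3.24 and 4.98 CPM in miR-497-5p-RE pull-downs, against 3.79, 4.82 and 5.09 CPM in Control, and was not called.

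**Figure D4:**
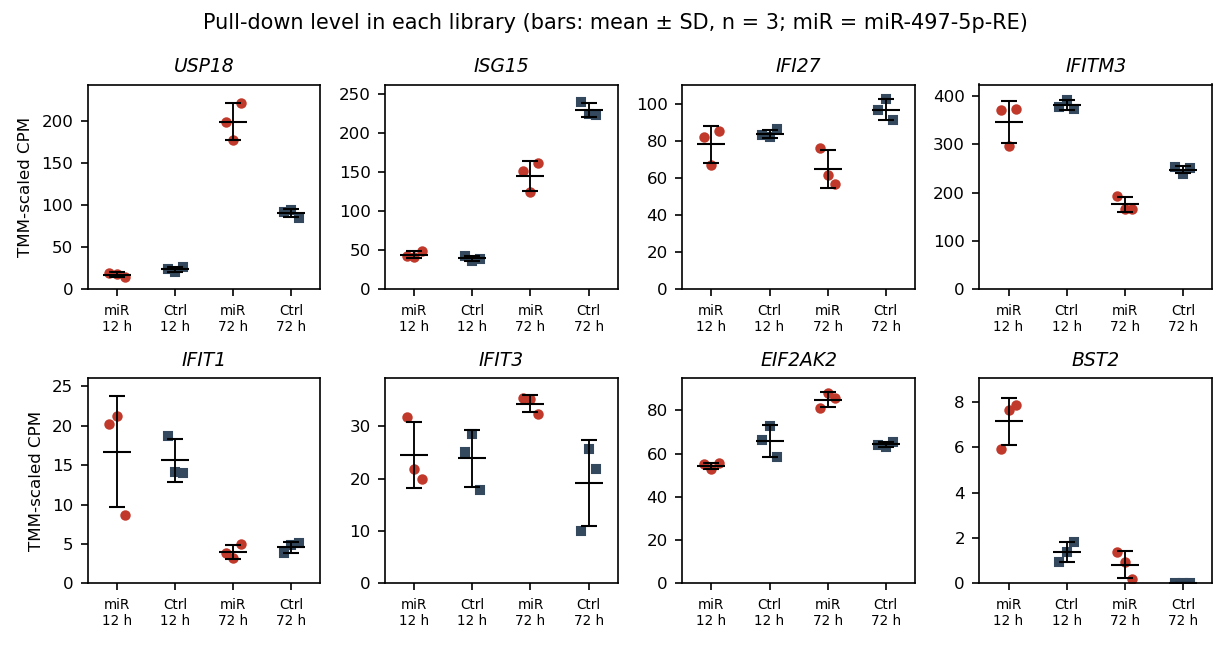
Pull-down level (TMM-scaled CPM, axis from 0) of 8 interferon response genes in each library at 12 and 72 h, miR-497-5p-RE left of Control at each time, with mean ± SD of 3 libraries. USP18 lies at 177 to 221 CPM in miR-497-5p-RE pull-downs at 72 h, against 85.0 to 94.2 CPM in Control; ISG15 and IFITM3 lie lower in miR-497-5p-RE at that time.

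Whether the pull-down differed from the input was tested as the effect in the pull-down minus the effect in RNA-seq. These fits gave both assays a shared spread, a biological coefficient of variation of 0.175 at 72 h and 0.2 at 12 h. Alone, RNA-seq had 0.06 and the pull-down 0.349, so the SE and adjusted p of these differences may be too small. No alternative gave each assay its own spread. At 72 h, 36 members were tested, 1 was higher and 5 were lower (16.7%, against 14.5% of all 16896 genes, of which 7.46% were higher and 7.01% lower). USP18 was higher in the pull-down by 0.88 ± 0.12 (adjusted p = 7.56e-05), and this held under every alternative tried. IFIT1 was lower by -1.08 ± 0.25 (adjusted p = 0.00629) and IFITM3 by -0.43 ± 0.08 (adjusted p = 0.00156), and both held as well. TRIM22 (-0.76 ± 0.21, adjusted p = 0.0215), IFITM2 (-0.30 ± 0.09, adjusted p = 0.0291) and ISG15 (-0.35 ± 0.11, adjusted p = 0.0425) were lower but lost their calls with library totals, where the median over all genes moved by 0.13, and 2 members were higher and 2 lower. Leaving out any 1 RNA-seq library left 2 or 3 members lower. None of the 8 members with TGCTGCT in the 3′ UTR was called higher in this test, where 7.46% of all genes were. So few members cannot show a difference from that share. The share among all genes with the match was not counted.

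**Figure D5:**
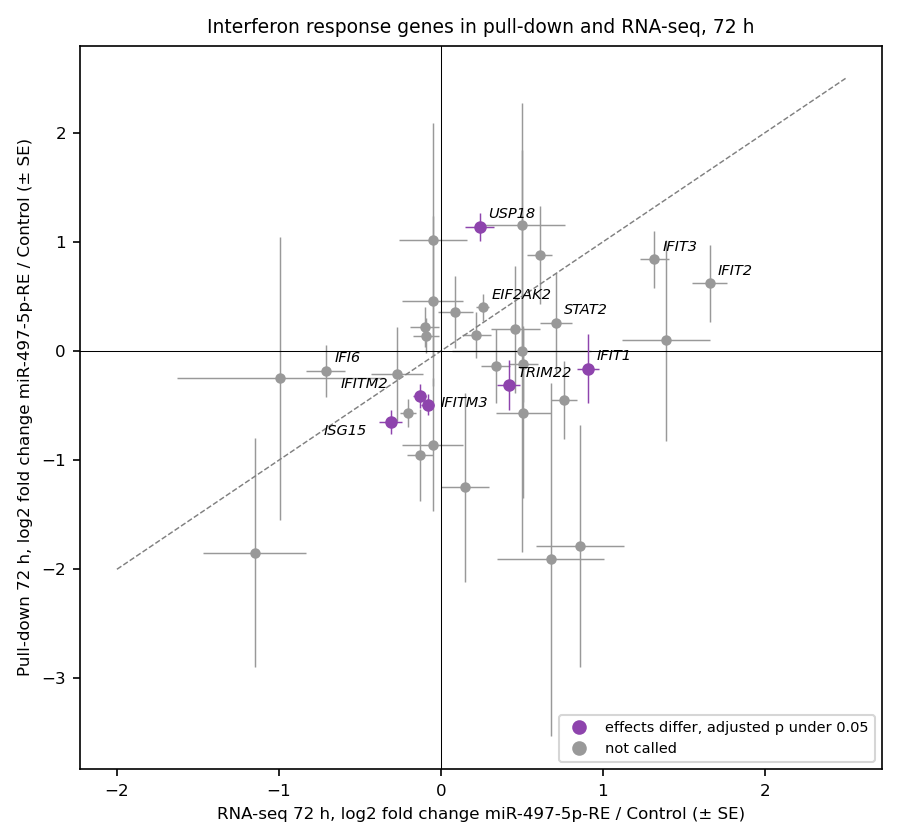
Log2 fold change, miR-497-5p-RE over Control, ± SE at 72 h in RNA-seq (horizontal) and Pull-down (vertical) for 35 interferon response genes tested in both; the dashed line marks equal effects, and purple points differ between the assays with adjusted p under 0.05. USP18 lies above the line, and IFIT1, TRIM22, IFITM2, IFITM3 and ISG15 below it.

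At 12 h no member was called in the pull-down by edgeR's test (0.595% of all genes were), 6 had an unadjusted p under 0.05, and DESeq2 called 1, USP18. USP18 had 19.6, 18.2 and 14.2 CPM in miR-497-5p-RE pull-downs, against 23.8, 21.0 and 26.5 CPM in Control (log2 fold change -0.46 ± 0.13, adjusted p = 0.16 in edgeR and 0.0307 in DESeq2). The difference between its effects at 72 and 12 h was itself called (1.60 ± 0.19, adjusted p = 1.86e-06), 1 of 4 such members, 3 higher and 1 lower (10.3%, against 12.2% of all genes, with 5.94% higher and 6.27% lower). IFIH1 had 4.44, 3.13 and 3.23 CPM in miR-497-5p-RE pull-downs, against 0.847, 0.968 and 0.668 CPM in Control. BST2 had 5.92, 7.64 and 7.84 CPM in miR-497-5p-RE pull-downs, against 0.941, 1.40 and 1.81 CPM in Control (2.36 ± 0.67, adjusted p = 0.139). Neither pair of groups overlapped, nor did those of other members not called. Among them DDX60, OAS1, OASL, IFIT2 and STAT2 lay higher with miR-497-5p-RE, and EIF2AK2 and IFIT5, like USP18, lay lower. The share of all genes without overlap was not counted. Against the input, the pull-down effect of IFIH1 was called (2.06 ± 0.44, adjusted p = 0.0332), the only member of 41 tested (2.44%, against 1.34% of all genes, with 0.984% higher and 0.357% lower). That call ended with the replicate number as a block (adjusted p = 0.058) and without 8 of the 12 libraries in turn (up to 0.114). Squamous markers summed to 331, 403 and 39.4 CPM in miR-497-5p-RE pull-downs and 21.5, 129 and 519 CPM in Control pull-downs at 12 h, and leukocyte markers to 2.85, 8.77 and 11.3 CPM in miR-497-5p-RE and 7.72, 4.65 and 4.58 CPM in Control, and their part in these low genes was not tested.

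In Control pull-downs, 72 h against 12 h, 6 members were higher and 12 lower (46.2%, against 52.2% of all genes, of which 23.4% were higher and 28.8% lower). ISG15 had 239, 224 and 223 CPM at 72 h, against 42.3, 36.8 and 39.3 CPM at 12 h (2.53 ± 0.12, adjusted p = 3.52e-15), and IFI35 rose by 2.29 ± 0.17 (adjusted p = 2.34e-11). USP18 had 91.4, 94.2 and 85.0 CPM at 72 h, against 23.8, 21.0 and 26.5 CPM at 12 h (1.93 ± 0.13, adjusted p = 7.39e-12), although in Control RNA-seq it was not called (-0.16 ± 0.09, adjusted p = 0.0998). IFIT1 (-1.77 ± 0.31, adjusted p = 3.52e-05) and IFIT5 (-1.49 ± 0.35, adjusted p = 0.000781) fell with time in the pull-down as in the input. With library totals the median over all genes moved by -0.42, and 5 members were higher and 18 lower.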

How the data were processed

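The submitters' processing notes name Trimmomatic 0.36 for trimming, STAR 2.5.2b with the GRCh38 build for alignment, and featureCounts (Subread 1.5.2) for gene counts of unique reads in exons. The authors deposited whole-number counts per gene and library, not normalized. Symbols and UTRs came from GENCODE 44, which named 98.1% of the 57500 identifiers. Each assay's 12 libraries were fitted together with edgeR 4.0.16 in R 4.3.3 (TMM, filterByExpr, robust quasi-likelihood test), and the 12 libraries of each time were fitted for pull-down against input. The Benjamini-Hochberg adjustment ran across every gene in a fit, and genes under 0.05 were called. The fits were tested on simulated data. Libraries of 1 group differed by more than counting error. DESeq2 1.42.0, other scalings, no filter, the groups compared alone, the replicate number as a block and each library left out were tried as alternatives. The members, role groups and pathway lists were chosen with earlier results of these data known. The rule for values per library was up to 12 called members per comparison with the smallest adjusted p plus the heads of role groups, and for each pathway list up to 4 genes with the smallest adjusted p in RNA-seq at 72 h plus fixed pathway genes, of which 1 is not reported here. DTX3L, SOCS1 and the library values of further members were added after their values were seen. Exons of 15 members overlap another gene, 10 of them only on the opposite strand, and whether counting used strand is not stated in these sources.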

Additional observations from a re-analysis of the deposited data

Results flagged for a closer look

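The effect of miR-497-5p-RE on 22 members differed between 72 and 12 h in RNA-seq, by a test of the difference itself (edgeR's quasi-likelihood test, adjusted over all genes). The differences on the log2 scale, effect at 72 h minus effect at 12 h, were positive for IFIT2 (1.52), OAS2 (1.41), IFIT3 (1.16), IFIT1 (0.79), STAT2 (0.74), IFIT5 (0.66), IFIH1 (0.64), PARP9 (0.61), PARP14 (0.61), RIGI (0.57), SAMD9 (0.56), EIF2AK2 (0.44) and TRIM22 (0.43). They were negative for BST2 (-5.31, fitted against a group with no counts and so no bound), CMPK2 (-1.21), IFI6 (-0.99), ISG15 (-0.71), ISG20 (-0.59), IFI27 (-0.5), IFI35 (-0.39), IFITM2 (-0.3) and IFITM3 (-0.25). The calls of IFIH1, RIGI and ISG20 ended in at least 1 alternative (highest adjusted p = 0.0941, 0.0662 and 0.0528).

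In the pull-down the effect differed between the times for USP18 (1.6), EIF2AK2 (0.68), ISG15 (-0.82) and BST2 (4.75, again no bound). Between the assays at 12 h, the effect in the pull-down minus that in RNA-seq was called for IFIH1 (2.06). At 72 h it was called for USP18 (0.88), IFIT1 (-1.08), TRIM22 (-0.76), IFITM3 (-0.43), ISG15 (-0.35) and IFITM2 (-0.3).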

How the results depend on the processing

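Members called in every alternative and with every library left out numbered 17 of 23 in RNA-seq at 72 h, 5 of 9 at 12 h, 19 of 22 for the change of the RNA-seq effect with time, 26 of 32 for the change with time in Control RNA-seq and 12 of 18 in Control pull-downs, 6 of 8 in the pull-down at 72 h and 3 of 6 for pull-down against RNA-seq at 72 h. With library totals in place of TMM, 11 members fell in RNA-seq at 72 h, 3 were lower in the change of the pull-down effect with time, and at 72 h pull-down against RNA-seq gave 2 higher and 2 lower. With no filter these became 2 lower in the change with time and 10 for pull-down against RNA-seq (2 higher, 8 lower), and DESeq2 gave 8 lower in that comparison. In RNA-seq at 12 h, 1 member fell with no filter, with DESeq2 or with the groups compared alone. In the pull-down at 12 h, DESeq2 called 1 member lower (USP18) and the groups alone 1 higher (BST2), and of all genes 217 were called with no filter and 341 with DESeq2, against 104. For pull-down against RNA-seq at 12 h, library totals and no filter each called 2 members, both higher, DESeq2 3 (2 higher, 1 lower) and the block 0, and of all genes 400, 573 and 974 were called with library totals, no filter and DESeq2, against 229. The cause of these shifts was not tested.

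Replicate numbers were shared by the groups, and no pairing of the libraries showed in the counts: no pair of groups had all 3 same-number correlations over 0.1. Low correlations do not settle whether libraries of the same number shared a culture. With the replicate block the calls in RNA-seq at 72 h stayed at 17 higher and 6 lower, a call of IFI6 was gained at 12 h in RNA-seq (adjusted p = 0.0448), and IFIH1 in pull-down against RNA-seq at 12 h (0.058) and BST2 in the change of the pull-down effect (0.0622) were lost.

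Leaving out 1 library gave 5 to 9 members in RNA-seq at 12 h (4 to 8 higher, 1 to 2 lower; 1433 to 2212 of all genes), 2 to 5 higher in the pull-down at 72 h, and 1 to 3 lower in its change with time. In the pull-down at 12 h it gave 64 to 268 of all genes, for pull-down against RNA-seq at 12 h 0 to 3 members, all higher (42 to 683 of all genes), and at 72 h 4 to 9 members (1 to 3 higher, 2 to 8 lower). OAS1 in the pull-down at 72 h, not called, reached -7.03 without miR-497-5p-RE replicate 2, the 1 library of its group with counts. Depth limits BST2, RSAD2, OAS1, OASL, IRF9, XAF1 and IFI44L in both assays.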
